A study of Mus musculus with 2 samples.

Results

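The integrin genes of T cells are 10 genes, *Itgae*, *Itga1*, *Itga2*, *Itga4*, *Itgal*, *Itgav*, *Itgb1*, *Itgb2*, *Itgb3* and *Itgb7*, taken by name from the 32285 genes in both matrices, and all 10 were found in both. Their transcripts were counted in single TCRβ+ cells, that is, T cells bearing an αβ receptor, of spleen pooled with lymph nodes of the neck and groin of mice 14 weeks old. Each genotype was 1 mouse. The control was a *Foxp3Cre* WT mouse, and the DKO-severe mouse carried *Foxp3-Cre* with both copies of *Tet2* and *Tet3* floxed and had advanced lymphoid enlargement. Both carry Cre, fused to YFP and expressed from *Foxp3*, so that deletion begins in Treg cells and is kept in cells that later lose *Foxp3*. Cre is not expected in most other cells, CD8 T cells among them. The paper states, however, that *Foxp3-Cre* can be leaky at low, stochastic levels, and deletion was not tested in any gate here. With 1 mouse per genotype there is no error between animals and no test. Every interval below is a 95% interval that covers counting error only.

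Integrins are adhesion receptors made of 1 α and 1 β subunit, and the pairing sets the ligand. In T cells, α4 pairs with β1 to bind VCAM-1 and fibronectin in inflamed tissue, or with β7 to bind MAdCAM-1 on vessels of the gut. αE (*Itgae*, CD103) pairs with β7 and binds E-cadherin on epithelium. αL and β2 (*Itgal* and *Itgb2*) form LFA-1, which binds ICAM proteins in nearly all contacts of T cells with other cells. α1 and α2 pair with β1 and bind collagen, and αv pairs with several β subunits, β3 among them, and binds matrix proteins and latent TGF-β.

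Some of the genes share a chromosome. In GRCm38, *Itga4* (chromosome 2, 79255426 to 79333123) and *Itgav* (chromosome 2, 83724397 to 83806916) lie on the same one, as do *Itgae* and *Itgb3* on chromosome 11, and *Itga2* (chromosome 13, 114833081 to 114932100) and *Itga1* (chromosome 13, 114953096 to 115101964) are neighbours on the minus strand. The other α genes are *Itgae* (chromosome 11, 73090583 to 73147446) and *Itgal* (chromosome 7, 127296260 to 127335138). The β genes are *Itgb1* (chromosome 8, 128685654 to 128733200), *Itgb2* (chromosome 10, 77530252 to 77565708), *Itgb3* (chromosome 11, 104608000 to 104670476) and *Itgb7* (chromosome 15, 102215995 to 102231944). *Pelo* overlaps *Itga1* on the same strand, so reads of the 2 genes may be hard to separate, and *Haspin*, *Cerkl* and *Gm13684* overlap *Itgae*, *Itga4* and *Itgav* on the opposite strand.

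Promoter sequences, running from 250 bases before to 50 bases after the gene start, were matched in RefSeq (GRCm38.p6) for 6 of the 10 genes, while *Itgae*, *Itgal*, *Itgb2* and *Itgb3* had none in that table. Shown are those of *Itga4*, its partners *Itgb1* and *Itgb7*, and *Itgav*, because 3 of the 4 were clearly higher in Foxp3-negative CD4 T cells of DKO-severe and *Itgb7* was not. They are read 5′ to 3′ on the strand of the gene from chr2:79255176-79255475 (*Itga4*, plus), chr8:128685404-128685703 (*Itgb1*, plus), chr2:83724147-83724446 (*Itgav*, plus) and chr15:102231886-102232185 (*Itgb7*, minus). Capitals mark the letters TGTGGT, read by RUNX factors, and GGGCGG, read by KLF and SP factors, on either strand.
Itga4: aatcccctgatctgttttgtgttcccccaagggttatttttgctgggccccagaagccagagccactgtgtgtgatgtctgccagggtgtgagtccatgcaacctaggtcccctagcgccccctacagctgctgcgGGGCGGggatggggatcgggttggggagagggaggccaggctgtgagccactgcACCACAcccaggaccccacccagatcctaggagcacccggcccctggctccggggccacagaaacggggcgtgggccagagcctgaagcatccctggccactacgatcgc
Itgb1: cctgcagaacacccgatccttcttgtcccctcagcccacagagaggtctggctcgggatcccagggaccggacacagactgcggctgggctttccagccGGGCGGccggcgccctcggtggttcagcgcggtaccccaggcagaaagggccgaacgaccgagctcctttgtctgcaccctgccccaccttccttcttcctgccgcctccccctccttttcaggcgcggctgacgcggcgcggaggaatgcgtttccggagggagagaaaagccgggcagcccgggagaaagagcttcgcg
Itgav: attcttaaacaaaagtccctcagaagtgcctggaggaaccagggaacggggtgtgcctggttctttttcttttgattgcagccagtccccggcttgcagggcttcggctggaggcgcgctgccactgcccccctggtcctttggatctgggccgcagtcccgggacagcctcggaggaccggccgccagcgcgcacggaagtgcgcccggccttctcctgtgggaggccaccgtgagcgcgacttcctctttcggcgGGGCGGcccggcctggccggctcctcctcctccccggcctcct
Itgb7: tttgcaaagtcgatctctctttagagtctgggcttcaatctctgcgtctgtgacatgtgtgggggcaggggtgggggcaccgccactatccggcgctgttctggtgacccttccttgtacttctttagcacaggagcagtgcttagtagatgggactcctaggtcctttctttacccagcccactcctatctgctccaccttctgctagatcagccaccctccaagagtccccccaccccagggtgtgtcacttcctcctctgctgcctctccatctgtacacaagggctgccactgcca
GGGCGG was found in the promoters of *Itga4*, *Itgb1*, *Itgav* and *Itga2*, but not in those of *Itgb7* and *Itga1*, the latter also higher in DKO-severe Foxp3-negative cells. Of all 32851 promoters of this length, 35.7% held it. TGTGGT was found in *Itga4* alone among the 6, against 16.8% of all promoters. Letters of 2 more factor families were searched and are not marked above. GGAAGT, read by ETS factors, was found in *Itga1*, *Itgav* and *Itgb7*, against 23.8% of all promoters. GTCTG, read by SMAD factors, was found in 5 of the 6, all but *Itgav*, against 49.6%. CpG dinucleotides numbered 27 in the *Itgb1* promoter, 24 in *Itgav*, 13 in *Itga2*, 12 in *Itga1*, 10 in *Itga4* and 5 in *Itgb7*, against a median of 7. These matches describe the letters and show no binding.

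The WT matrix gave 6584 retained cells with a median of 5616 UMIs (distinct captured molecules) and the DKO-severe matrix 6359 with a median of 8066, and the matrices share no barcode. T cells were taken by transcripts. Foxp3-negative Cd4-gated cells had UMIs of *Cd3* genes and *Cd4* but none of *Cd8a*, *Cd8b1* or *Foxp3*, and numbered 1675 in WT and 2407 in DKO-severe. Foxp3-positive Cd4-gated cells numbered 64 and 331, and Cd8-gated cells 3052 and 1735. Innate-like cells had UMIs of *Cd3* genes and *Zbtb16*, the factor of natural killer T cells, without *Foxp3*, and numbered 105 and 220. Of these, 20 WT and 87 DKO-severe cells were also in the Foxp3-negative Cd4 gate. The summed level of 6 Treg genes was 3767 and 3522 CPM in Foxp3-positive cells of WT and DKO-severe, against 155 and 174 CPM in Cd8-gated cells. In Foxp3-positive cells *Ikzf2* made up most of the sum, at 2235 and 2623 CPM, and *Ctla4* was at 442 and 435 CPM. The others were lower in DKO-severe, with *Foxp3* at 200 and 120 CPM and *Il2ra* at 490 and 163 CPM. *Ikzf4* was at 126 and 52.5 CPM and *Nrp1* at 272 and 129 CPM. The sum was higher in DKO-severe in Foxp3-negative (588 and 1504 CPM) and innate-like cells (529 and 1061 CPM). In Foxp3-negative cells *Ikzf2* was at 363 and 907 CPM and *Ctla4* at 88.7 and 326 CPM, while *Ikzf4* was lower, at 23 and 13.6 CPM. The part of these genes in the results below was not tested. CPM is the UMIs of a gene per 1000000 UMIs of the same gate and mouse. A gate can hold different mixtures of T cell states in the 2 mice, and a shift in the mixture and a shift of RNA per cell cannot be told apart in these sums.

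Transcripts of other cell types moved with genotype. The summed level of 6 granulocyte genes was 76.2 to 85.2 CPM over the 4 gates in WT and 1408 to 3818 CPM in DKO-severe. That of 6 macrophage or monocyte genes was 17.4 to 68.0 CPM in WT and 99.1 to 565 CPM in DKO-severe for the Cd4 and Cd8 gates, and 992 and 1217 CPM in innate-like cells. That of 4 plasma cell genes was lower in DKO-severe in Foxp3-negative (361 and 78.9 CPM) and Cd8-gated cells (176 and 48.3 CPM). *Jchain* carried this fall, at 322 and 21.7 CPM and at 157 and 19.7 CPM, while *Xbp1* was higher in Foxp3-negative cells (25.3 and 45.2 CPM). The sum was higher in DKO-severe in Foxp3-positive (37 and 90 CPM) and innate-like cells (49.9 and 60.4 CPM). That of 6 B cell genes was higher in DKO-severe in every gate, at 7.87 to 47.1 CPM in WT and 31.8 to 95.1 CPM in DKO-severe. The 6 platelet genes, relevant to *Itgb3* and *Itga2*, which platelets carry in amount, summed to 2.18 CPM or less in every gate and mouse, with 3 to 6 of the 6 genes at 0. Cells with 3 or more UMIs of such genes were 3.22% and 15.2% of Foxp3-negative cells, 3.12% and 31.4% of Foxp3-positive cells, 2.85% and 5.30% of Cd8-gated cells, and 11.4% and 21.4% of innate-like cells, in WT and DKO-severe. The ratio of an integrin gene without them is given where it left the counting interval, crossed 2-fold or changed sign.

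In Foxp3-negative Cd4-gated cells, 5 of the 10 integrin genes differed by 2-fold or more between the mice. *Itgb1*, *Itgav*, *Itga1* and *Itgae* were higher in DKO-severe and *Itgb3* was lower, while *Itga4* and *Itgal* were just short of 2-fold and *Itgb7*, *Itgb2* and *Itga2* differed less. With cells that carry UMIs of other cell types left out, *Itga4* (1.08) and *Itgal* (1.00) passed as well, which made 7. The median log2 ratio of DKO-severe over WT was 0.97 over the 10 genes, against 0.10 over 8299 genes with a mean of 10 or more CPM. Of those genes, 9.11% were 2-fold or more higher in DKO-severe and 3.60% lower. The integrin genes in that set were 8, of which 3 were higher and 1 lower by that measure.

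**Figure D1:**
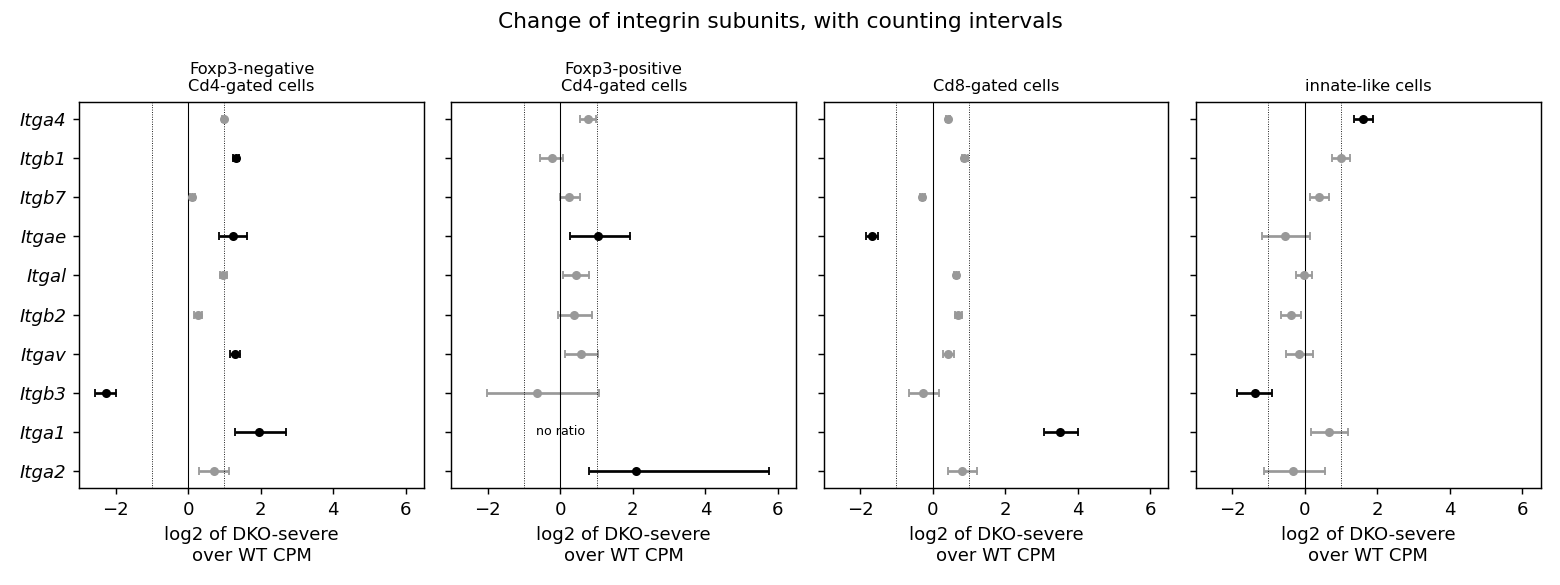
Log2 ratio of DKO-severe over WT CPM (x axis) for the 10 integrin genes (y axis) in each gate; points are ratios, bars their 95% counting intervals, dotted lines 2-fold, and black points are 2-fold or more. *Itgb3* stands lowest at -2.26 in Foxp3-negative cells, and *Itga1* highest at 3.52 in Cd8-gated cells.

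The α4 integrins were examined first. *Itga4* was at 366 CPM in WT (354 to 378) and 723 CPM in DKO-severe (712 to 734) in Foxp3-negative cells, a log2 ratio of 0.98 (0.93 to 1.03). *Itgb1* was at 196 CPM (187 to 205) and 490 CPM (481 to 500), a log2 ratio of 1.32 (1.25 to 1.39), and 1.47 without cells that carry UMIs of other cell types. *Itgb7* was at 211 CPM (202 to 220) and 228 CPM (222 to 235), a ratio of 0.11 (0.04 to 0.19) that was -0.04 with a CPM computed without genes of immunoglobulins, haemoglobins, mitochondria and ribosomal proteins. The α chain and *Itgb1* were thus higher in DKO-severe, and *Itgb7* was near its WT level. There were 0.928 UMIs of *Itgb1* for each UMI of *Itgb7* in WT (0.871 to 0.988) and 2.15 in DKO-severe (2.08 to 2.22). It was also higher in Cd8-gated cells of DKO-severe, at 0.507 (0.480 to 0.535) in WT and 1.14 (1.08 to 1.20). In innate-like cells it was 1.01 (0.797 to 1.27) and 1.52 (1.38 to 1.69), and in Foxp3-positive cells 0.792 (0.598 to 1.04) and 0.564 (0.517 to 0.615), with overlapping intervals and 22.1% of the 95 WT *Itgb1* UMIs in 1 cell. In Foxp3-positive cells thinned to equal depth the log2 ratio was 0.32 for *Itgb1* and -0.07 for *Itgb7*, so that the direction turned. Per-gene capture differs, so these ratios compare mice and gates, not amounts of the 2 chains.

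Because DKO-severe cells held more UMIs, the share of cells with a UMI was compared after each cell was thinned at random to 3800 UMIs. This left out 688 WT cells (10.4%) and 476 DKO-severe cells (7.49%). The gates were set again on the thinned counts, so they do not hold the same cells as the CPM values. They held 1243 WT and 1795 DKO-severe Foxp3-negative, 24 and 108 Foxp3-positive, 2908 and 1577 Cd8-gated, and 76 and 132 innate-like cells. A cell that lost its *Foxp3* UMIs but kept *Cd4* counts as Foxp3-negative there. At that depth *Itga4* was seen in 54.9% (52.1 to 57.7%) of the Foxp3-negative cells in WT and 73.5% (71.4 to 75.5%) in DKO-severe. *Itgb1* was found in 23.7% (21.4 to 26.2%) and 57.0% (54.7 to 59.4%), and without thinning in 27.9% and 72.0%. *Itgb7* was found in 53.7% (50.9 to 56.5%) and 50.7% (48.4 to 53.0%), with overlapping intervals. Cells with *Itgb1* held a like number of its UMIs in both mice, 3.25 and 3.46 per positive cell, so the share of cells with the transcript differed more than the UMIs in each. Cells with *Itga4* held 2.57 and 4.12 of its UMIs. B-gated cells, those with *Cd79a* and *Ms4a1* UMIs and none of *Cd3* genes, which express these 3 genes themselves and so are no background for them, had *Itga4* in 58.0%, *Itgb1* in 19.1% and *Itgb7* in 20.4% of 157 DKO-severe cells at the same depth. Only 8 WT cells were B-gated, too few for a share.

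**Figure D2:**
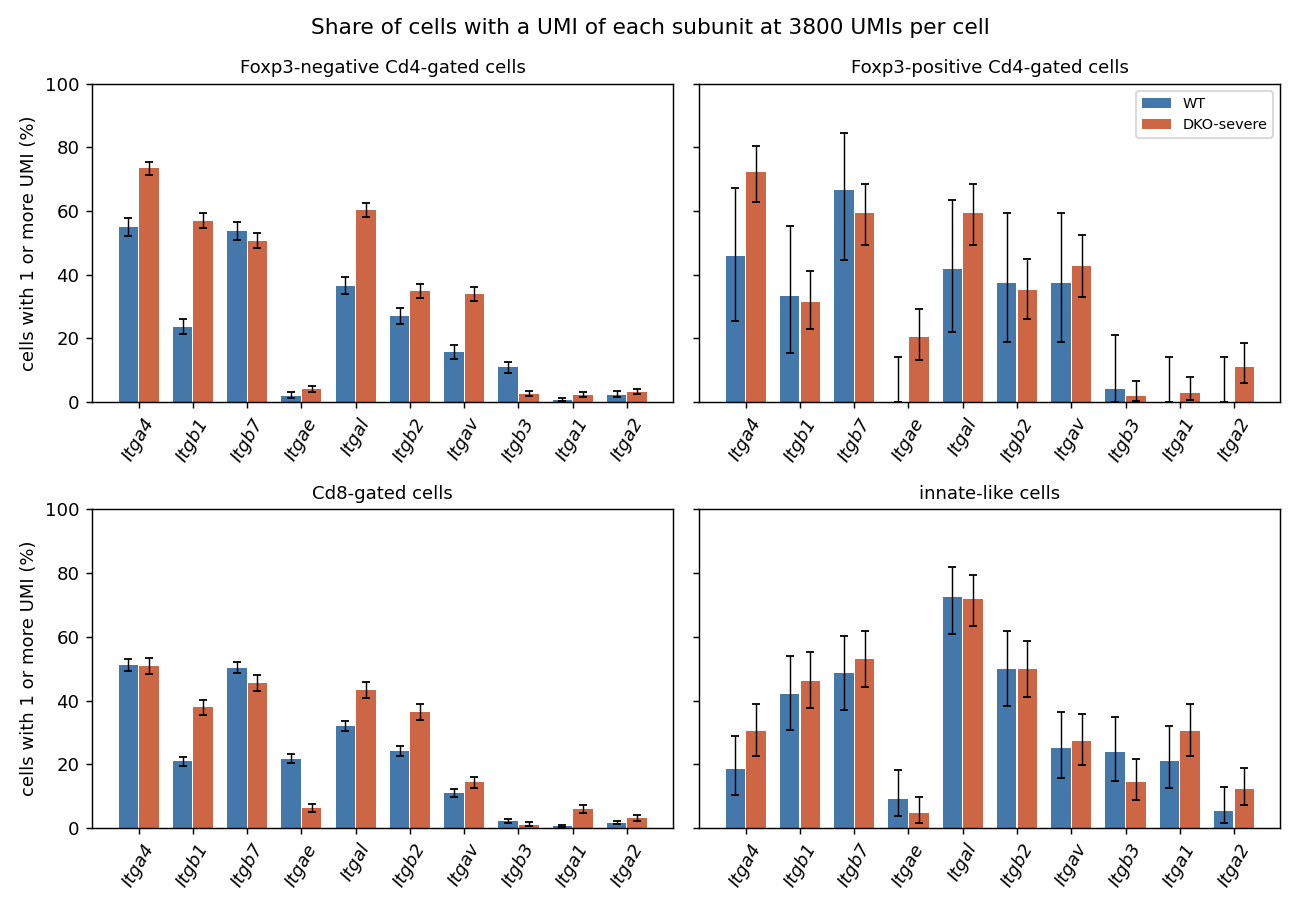
Share of cells with 1 or more UMI of each integrin gene (y axis, %) at 3800 UMIs per cell, by gate and genotype; bars are shares and error bars exact 95% binomial intervals. *Itgb1* stands at 23.7% in WT and 57.0% in DKO-severe Foxp3-negative cells, beside *Itgb7* at 53.7 and 50.7%, and *Itgae* at 21.8 and 6.21% in Cd8-gated cells.

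Detection of α and β transcripts in the same cell was examined next, which does not show that the proteins pair. Of Foxp3-negative cells with an *Itga4* UMI at equal depth, 11.9% of 683 in WT also had *Itgb1* without *Itgb7*, and 26.2% of 1319 in DKO-severe. *Itgb7* without *Itgb1* was found in 37.2% (33.6 to 40.9%) and 21.4% (19.2 to 23.7%), and both β genes in 15.7% and 32.5%. These splits were close to what the single shares give. Among the cells with *Itga4*, *Itgb1* was found in 27.5% and 58.7%, against 23.7% and 57.0% of all cells of the gate. For *Itgb7* it was 52.9% and 53.9%, against 53.7% and 50.7%. UMIs of both *Itga4* and *Itgb1* were present in 15.1% of all Foxp3-negative WT cells (13.2 to 17.2%) and 43.1% of those of DKO-severe (40.8 to 45.4%), close to the products of the single shares, 13% and 41.9%. In Cd8-gated cells with *Itga4*, *Itgb1* without *Itgb7* went from 8.88% of 1486 to 18.4% of 801, and *Itgb7* without *Itgb1* from 41.7% to 27.7%. The Foxp3-positive and innate-like gates held 11 and 14 such WT cells, and their intervals overlapped those of DKO-severe for each partner.

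**Figure D3:**
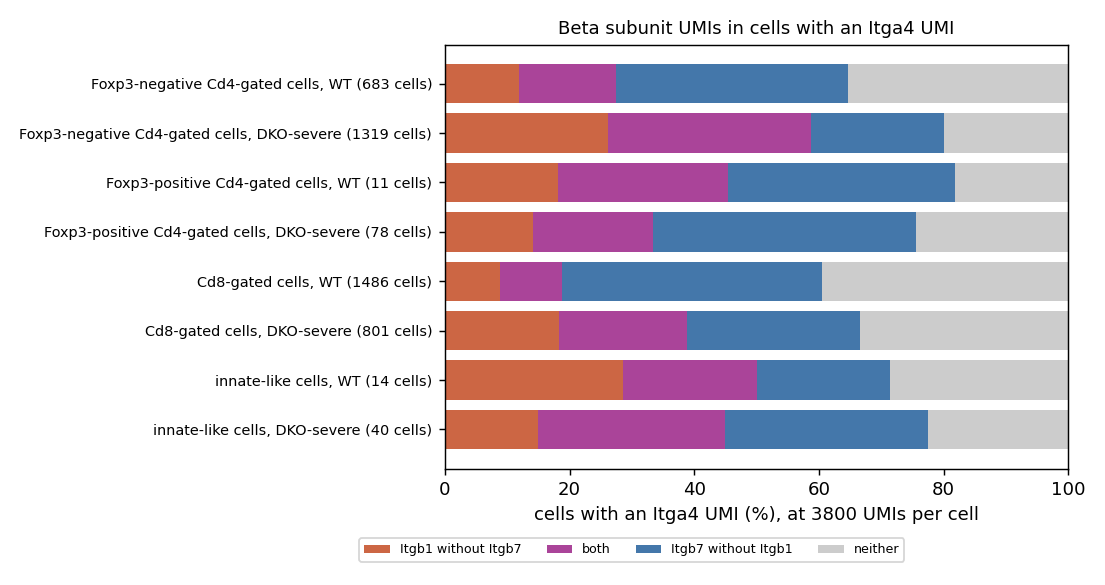
Cells with an *Itga4* UMI at 3800 UMIs per cell (x axis, % of these cells), split by the β subunit genes also found, for each gate and genotype with the number of cells. In DKO-severe Foxp3-negative cells the part with *Itgb1* alone is 26.2% and that with *Itgb7* alone 21.4%, against 11.9 and 37.2% in WT.

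The collagen and αE subunits were low in Foxp3-negative cells. *Itga1* was at 2.05 CPM in WT, from 20 UMIs, and at 7.96 CPM in DKO-severe, from 185, a log2 ratio of 1.96 (1.29 to 2.70), and was found at equal depth in 0.724% and 2.28% of cells, against 0 of 157 B-gated DKO-severe cells, for which a floor of 3 cells gives 1.91% and the exact interval reaches 2.32%, above the DKO-severe share. *Itgae* was at 6.95 CPM (5.40 to 8.82) and 16.3 CPM (14.7 to 18.0), a log2 ratio of 1.23 (0.85 to 1.62), and was found in 2.09% (1.37 to 3.05%) and 4.01% (3.15 to 5.02%) of cells, against 1.27% of B-gated cells (0.155 to 4.53%), whose interval overlaps both. *Itga2* was at 6.65 and 10.8 CPM (0.71, 0.31 to 1.12). A pseudocount of 5 CPM took *Itga1* and *Itgae* below 2-fold, to 0.88 and 0.83.

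Among the other subunits of Foxp3-negative cells, *Itgav* was at 54.9 CPM in WT (50.4 to 59.8) and 133 CPM in DKO-severe (129 to 138), a log2 ratio of 1.28 (1.15 to 1.42). Its partner *Itgb3* went the opposite way, from 30.8 CPM (27.4 to 34.5) to 6.41 CPM (5.42 to 7.53), a log2 ratio of -2.26 (-2.56 to -1.98). At equal depth *Itgb3* was found in 10.9% (9.19 to 12.7%) of WT and 2.62% (1.93 to 3.47%) of DKO-severe cells, against 7.01% of B-gated (3.55 to 12.2%) and 1.08% of Cd8-gated DKO-severe cells (0.629 to 1.72%), so that B-gated cells are no background for this gene. *Itgav* was found in 15.7% (13.7 to 17.8%) and 34.1% (31.9 to 36.3%) of cells, against 19.1% of B-gated (13.3 to 26.1%) and 14.3% of Cd8-gated DKO-severe cells (12.6 to 16.1%). UMIs of both *Itgav* and *Itgb3* were found in 1.93% and 0.836% of cells, and those of *Itgav* and *Itgb1* in 6.36% and 20.2%. Of the LFA-1 chains, *Itgal* was at 136 and 266 CPM (0.97, 0.88 to 1.06) and *Itgb2* at 97.1 and 118 CPM (0.28, 0.17 to 0.39), so that the α chain differed more than the β chain.

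**Figure D4:**
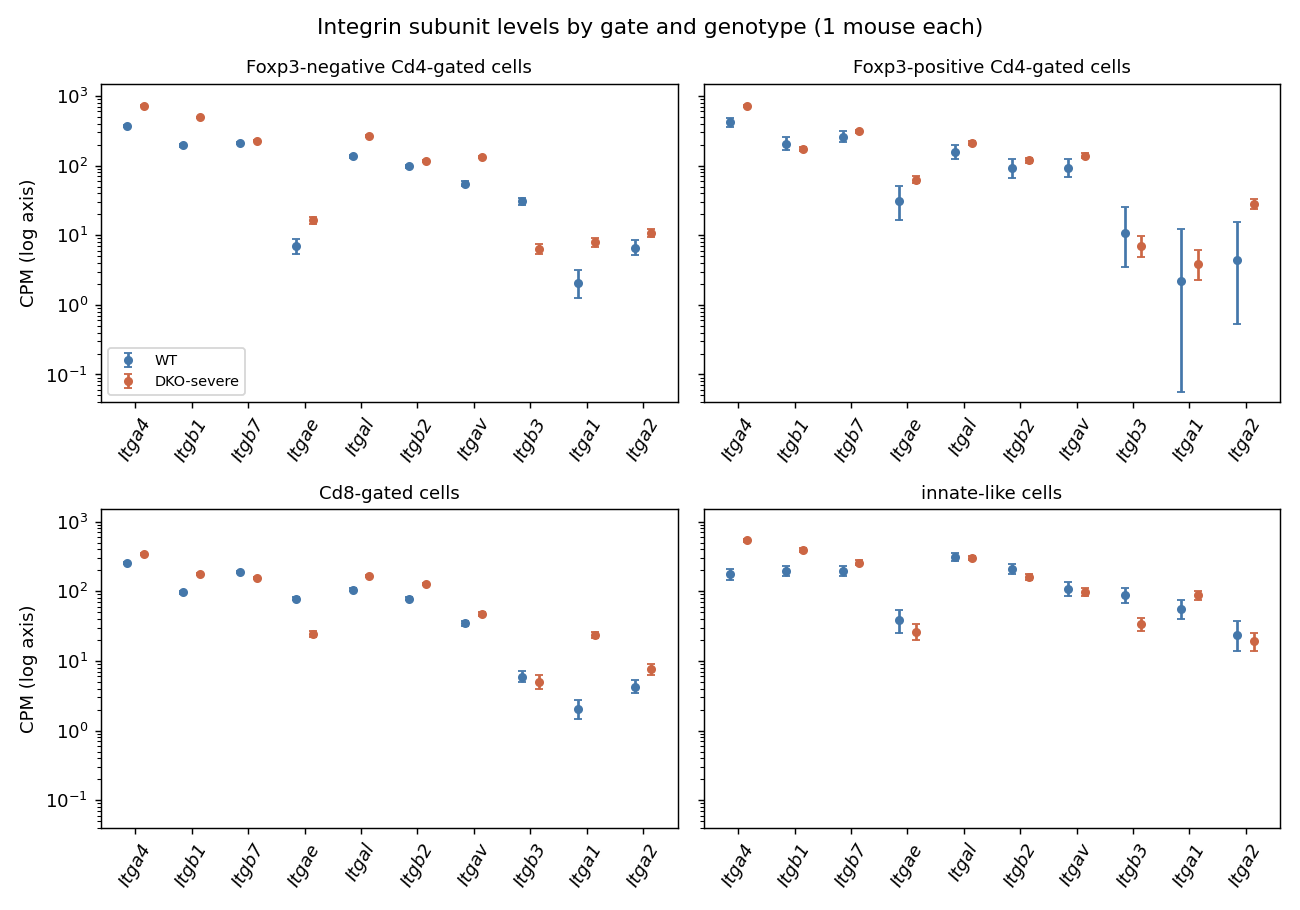
Level of each integrin gene in CPM (y axis, log scale) by gate for WT and DKO-severe; points are the level of 1 mouse and bars exact 95% Poisson intervals. *Itga4* stands at 366 and 723 CPM in Foxp3-negative cells, and *Itga1* separates innate-like cells, at 55.1 and 87.4 CPM, from the Cd4 gates.

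Foxp3-positive cells rest on 459046 WT and 4719695 DKO-severe UMIs, so WT intervals are wide. Of the 10 genes, 2 were past 2-fold, both higher in DKO-severe (3 without cells that carry UMIs of other cell types, as *Itgb3* then stood at -1.48), and the median over the 9 with a ratio was 0.43, against 0.04 over 8441 genes, of which 10.2% were 2-fold higher and 7.04% lower. *Itgae*, which marks a subset of Treg cells, was at 30.5 CPM in WT (16.7 to 51.2) and 62.7 CPM in DKO-severe (55.8 to 70.3), a log2 ratio of 1.04 (0.27 to 1.93). The WT value came from 14 UMIs, 28.6% of them in 1 cell. At equal depth *Itgae* was not found in 24 WT cells (0 of 24, a floor of 12.5% for 3 cells and an exact interval up to 14.2%) but in 22 of 108 DKO-severe cells, or 20.4% (13.2 to 29.2%), and the intervals overlapped. Over the alternatives the ratio ran from 0.78, with 2 or more UMIs asked of each gate gene, to 1.88. *Itga2* counted 2 WT UMIs against 132 of DKO-severe (28.0 CPM), a log2 ratio of 2.68 from the counts and 2.10 with WT counted as 3 UMIs (0.80 to 5.74). In cells thinned to equal depth WT had 0 UMIs, which gave 0.25 with WT counted as 3 UMIs and a lower limit of -0.22, and equal weight per cell gave 4.49. *Itga1* had 1 and 18 UMIs and gave no ratio.

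The intervals of the α4, αv and αL chains lay above 0 in Foxp3-positive cells, and that of *Itgb1* did not. *Itga4* was at 418 and 711 CPM (0.77, 0.55 to 0.98), *Itgav* at 93.7 and 139 CPM (0.57, 0.12 to 1.05) and *Itgal* at 157 and 211 CPM (0.43, 0.08 to 0.79). *Itgb1* was at 207 and 175 CPM, giving a ratio of -0.24 (-0.55 to 0.08), which turned positive in cells thinned to equal depth (0.32), with equal weight per cell (0.18) and without cells that carry UMIs of other cell types (0.04). Of its 95 WT UMIs, 22.1% lay in 1 cell. The intervals of *Itgb7* (0.25, -0.02 to 0.53), *Itgb2* (0.39, -0.07 to 0.88) and *Itgb3* (-0.64, -2.01 to 1.07) included 0. The *Itgb1* interval lies wholly under that of Foxp3-negative cells (1.25 to 1.39), and this difference between gates was not tested. Among Foxp3-positive DKO-severe cells, the 86 with *Dscam* (26% of the gate) held *Itgae* at 136 CPM and *Itga2* at 9.49 CPM. The 245 without it held them at 32.8 and 35.5 CPM. In WT only 5 cells (7.81%) had *Dscam*, with *Itgae* at 72.2 CPM from 4 UMIs (0.91, -0.47 to 2.80). The 59 WT cells without it held *Itgae* at 24.8 CPM (0.41, -0.53 to 1.51). They held *Itga2* at 2.48 CPM from 1 UMI (2.26, 1.34 to 9.16, with WT counted as 3 UMIs). Both *Itgae* intervals thus included 0.

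In Cd8-gated cells the 2 genes past 2-fold went opposite ways, *Itga1* higher and *Itgae* lower in DKO-severe. *Itgae* was at 78.1 CPM in WT (74.3 to 81.9) and 24.7 CPM in DKO-severe (22.4 to 27.3), a log2 ratio of -1.66 (-1.82 to -1.50). At equal depth it was found in 21.8% (20.3 to 23.3%) and 6.21% (5.07 to 7.52%) of cells, both above the 1.27% of B-gated cells. *Itga1* was at 2.05 CPM (1.48 to 2.76) and 23.5 CPM (21.2 to 25.9), a log2 ratio of 3.52 (3.06 to 4.01), found in 0.481% and 5.83% of cells. The WT share is under the 1.91% that a count of 0 in B-gated cells permits. In WT, 20.9% of the 43 *Itga1* UMIs lay in 1 cell, and in DKO-severe 3.87% of 388. Of 7819 genes tested in this gate, 2.00% were 2-fold higher in DKO-severe and 1.10% lower, with a median log2 ratio of -0.02.

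The other integrin genes of Cd8-gated cells differed by less than 2-fold. *Itgb1* was at 96.4 and 178 CPM (0.88, 0.80 to 0.97), *Itgal* at 105 and 166 CPM (0.66, 0.58 to 0.74) and *Itgb2* at 78.1 and 128 CPM (0.71, 0.62 to 0.80). *Itga4* was at 254 and 342 CPM (0.43, 0.37 to 0.48), but was found in 51.1% and 50.8% of cells at equal depth, with more UMIs per positive cell (1.97 and 3.22). *Itgb7*, the shared partner of αE and α4, was at 190 and 157 CPM (-0.28, -0.35 to -0.21). UMIs of both *Itgae* and *Itgb7* were found in 11.7% (10.6 to 13%) of cells in WT and 3.55% (2.69 to 4.59%) in DKO-severe. UMIs of both *Itga1* and *Itgb1* were found in 0.275% (0.119 to 0.541%) and 3.36% (2.53 to 4.37%).

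Innate-like cells had the highest levels of *Itga1*, *Itgal*, *Itgb2* and *Itgb3* of any gate, though *Itgb3* in DKO-severe overlapped WT Foxp3-negative cells. This gate also held the most macrophage or monocyte transcripts, at 992 and 1217 CPM, and their part in these levels was not tested. *Itga4* was at 175 CPM in WT (146 to 207) and 538 CPM in DKO-severe (510 to 568), a log2 ratio of 1.62 (1.37 to 1.89), and *Itgb1* at 196 and 391 CPM, just short of 2-fold (1.00, 0.75 to 1.26). *Itgb3* was at 87.9 CPM (68.1 to 112) and 33.8 CPM (27.0 to 41.8), a log2 ratio of -1.38 (-1.86 to -0.90). *Itga4* and *Itgb3* were the 2 genes past 2-fold. In innate-like cells without *Cd4*, *Cd8a* and *Cd8b1* UMIs, *Itga4* was at 0.78 and *Itgb1* at 0.60. Without cells that carry UMIs of other cell types *Itgb3* was at -0.98, *Itga1* at 1.04, *Itga4* at 1.93, *Itgav* at -0.55 against -0.15 with them, and *Itgae* at 0.26 against -0.54. Over 8595 genes 6.91% were 2-fold higher and 2.85% lower. At equal depth *Itga4* was found in 18.4% (10.5 to 29.0%) and 30.3% (22.6 to 38.9%) of cells, with overlapping intervals. *Itgal* was at 310 and 304 CPM and *Itga1* at 55.1 and 87.4 CPM (0.67, 0.18 to 1.18).

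The order of the gates differed by gene. *Itgae* was highest in WT Cd8-gated cells (78.1 CPM), then in DKO-severe Foxp3-positive cells (62.7 CPM), without overlap of the intervals, and lowest in WT Foxp3-negative cells. *Itga1* was highest in innate-like cells of DKO-severe (87.4 CPM) and WT (55.1 CPM), and the intervals of WT Cd8-gated, Foxp3-negative and Foxp3-positive cells overlapped. *Itgb1* was highest in DKO-severe Foxp3-negative cells, then in DKO-severe innate-like cells, and the 5 sums between 175 and 207 CPM had overlapping neighbours. *Itga4* did not differ between DKO-severe Foxp3-negative and Foxp3-positive cells (723 and 711 CPM). *Itgb7* stayed between 157 and 310 CPM in all 8 sums.

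Within Foxp3-negative cells the levels were compared in cells picked by genes outside the set, with earlier results of these data known. A group of CD4 T cells in these data was already named by *Rora* and *Itgb1*, so a high *Itgb1* level in *Rora* cells is no separate result. In the 208 WT and 732 DKO-severe cells with *Rora*, a gene of effector and memory cells, *Itgb1* was at 586 and 519 CPM (-0.17, -0.28 to -0.07). Of the other genes past 2-fold in the gate, *Itgae* was at 22.3 and 23.7 CPM (0.09, -0.45 to 0.68) in the *Rora* cells. *Itgav* was at 97.4 and 137 CPM there (0.49, 0.24 to 0.76). *Itga1* (1.90, 0.63 to 3.55, from 5 WT UMIs) and *Itgb3* (-1.63, -2.24 to -1.01) were still past 2-fold. In the 86 and 805 cells with *Cntn5*, *Itgb1* was at 150 and 608 CPM (2.02, 1.70 to 2.37). The 761 DKO-severe cells with *Il21*, the cytokine of follicular helper cells, held 657 CPM of *Itgb1* and 626 CPM of *Itga4*, and the 20 WT cells with it held 572 CPM (0.20, -0.16 to 0.58) and 411 CPM (0.61, 0.19 to 1.06). The 354 DKO-severe cells with both *Pdcd1* and *Cxcr5* held 362 CPM of *Itgb1* and 457 CPM of *Itga4*, and the 15 such WT cells 229 CPM (0.66, 0.13 to 1.26) and 572 CPM (-0.32, -0.67 to 0.04). In dividing cells (*Mki67* or *Top2a*), *Itgb1* was at 420 and 490 CPM (0.22, 0.09 to 0.36) and *Itgb3* at 18.5 and 3.49 CPM (-2.40).

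In Cd8-gated cells, *Itgae* was lower in DKO-severe in each state shown. The log2 ratio was -1.81 in cells with *Ccl5*, -2.35 with a granzyme gene (*Gzma*, *Gzmb* or *Gzmk*) and -1.57 in dividing cells. *Itga1* was highest in the granzyme cells, at 8.56 CPM in 190 WT cells and 73.8 CPM in 582 DKO-severe cells (3.11, 2.28 to 4.07). *Itga4* was at 395 and 723 CPM in the granzyme cells (0.87). The states overlap, and cells are placed in them by UMIs that deeper cells show more often.

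**Figure D5:**
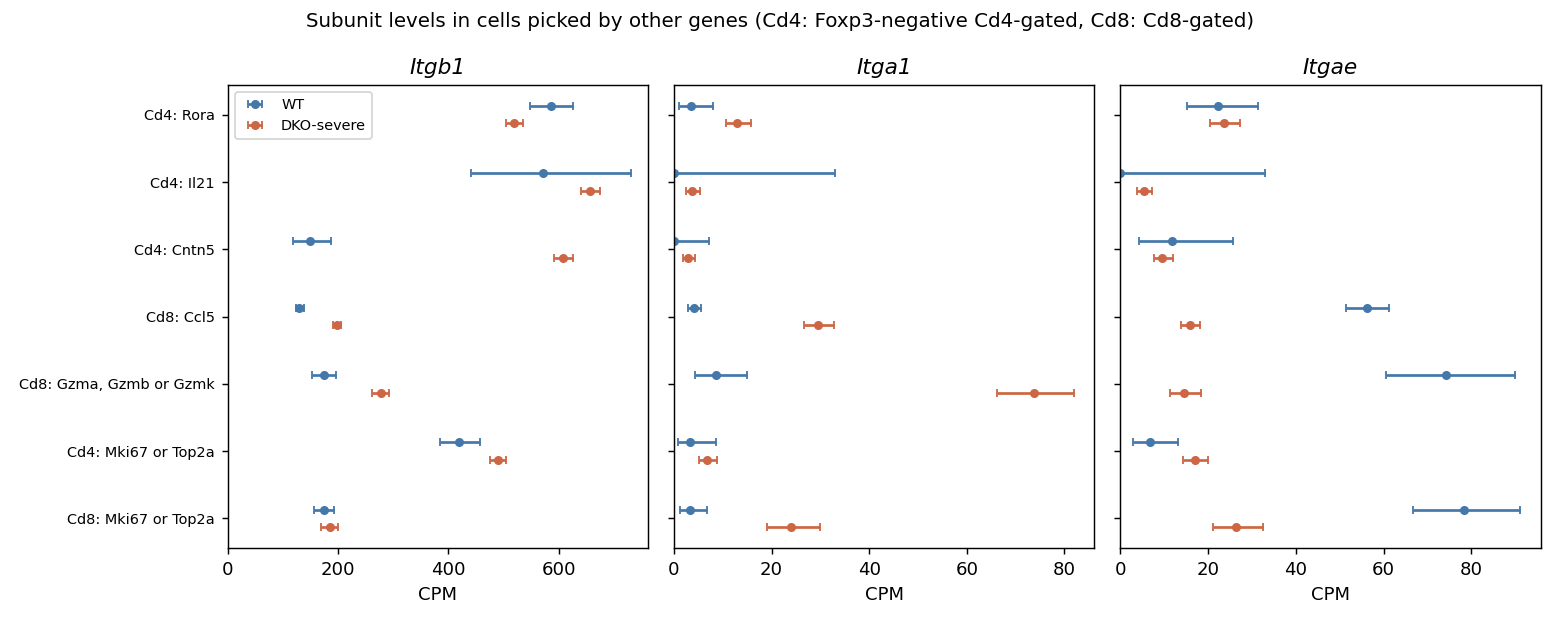
Level of *Itgb1*, *Itga1* and *Itgae* in CPM (x axes, linear) in Foxp3-negative Cd4-gated and Cd8-gated cells that carry UMIs of the genes named on the y axis; points are 1 mouse and bars 95% Poisson intervals. *Itgb1* is alike in the 2 mice in *Rora* cells, at 586 and 519 CPM, and *Itgae* is lower in DKO-severe in each Cd8 state shown.

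The genes around the integrins were given by lists. Among 17 other subunit genes, 15 had a ratio in Foxp3-negative cells, and 7 were 2-fold or more higher and 3 lower in DKO-severe. At a mean of 10 or more CPM, the set behind the shares of 9.11% higher and 3.60% lower over all genes, there were 3, of which 2 were higher and 1 lower. *Itgb8*, a partner of αv that activates TGF-β, was at 13.2 and 124 CPM (3.23, 2.98 to 3.50) in Foxp3-negative cells, 47.9 and 203 CPM (2.08) in Foxp3-positive cells, where 36.4% of the 22 WT UMIs lay in 1 cell. In innate-like cells it was at 0 UMIs in WT against 59.6 CPM in DKO-severe. With WT counted as 3 UMIs this was 15.1-fold higher (log2 3.92, with a lower limit of 3.60). *Itga6*, a laminin receptor subunit, was at 97.5 and 25.9 CPM (-1.91) in Foxp3-negative and 155 and 19.5 CPM (-2.99) in Foxp3-positive cells. Without the cells that carry UMIs of other cell types, these log2 ratios were 3.21 and 2.01 for *Itgb8* and -1.79 and -2.56 for *Itga6* in the Cd4 gates, and *Itgb8* in innate-like cells was at 16.0 CPM in DKO-severe and still at 0 UMIs in WT, a log2 ratio of 1.71 over the floor, with a lower limit of 1.30. *Itgam*, a subunit of macrophages and granulocytes, was at 19.7 and 56.4 CPM in innate-like cells (1.52) and had 2 WT UMIs in Foxp3-positive cells against 41.1 CPM in DKO-severe. Without cells that carry UMIs of other cell types, *Itgam* was at 3.26 and 18.7 CPM in innate-like cells (1.94, 0.53 to 5.64), and at 0 UMIs in WT against 31.4 CPM in Foxp3-positive cells.

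Of 21 genes of integrin activation, 20 had a ratio in Foxp3-negative cells, with 2 higher and 1 lower. Of the 19 at a mean of 10 or more CPM 1 was higher and 1 lower, against 9.11% and 3.60% of all genes. *Rasgrp2*, the exchange factor that switches Rap1 on, was lower in DKO-severe, at 141 and 61.7 CPM (-1.19) in Foxp3-negative and 144 and 41.1 CPM (-1.81) in Foxp3-positive cells. Of the 66 WT UMIs of *Rasgrp2* in Foxp3-positive cells 42.4% lay in 1 cell, and without cells that carry UMIs of other cell types it was at 93.9 and 40.7 CPM (-1.21). The median of this list was 0.07 in Foxp3-negative, 0.24 in Foxp3-positive, -0.02 in Cd8-gated and 0.08 in innate-like cells. Of 11 genes that act upstream of integrins, 4 were lower and none higher by 2-fold in Foxp3-negative cells, or 3 of the 10 at a mean of 10 or more CPM, against the 3.60% of all genes lower and 9.11% higher. They included *Smad7* (200 and 49.9 CPM, a log2 interval of -2.11 to -1.89), a brake on TGF-β signals, *Tgfbr2* (321 and 101 CPM, -1.67), its receptor, and *Rara* (38.7 and 15.4 CPM, -1.32), the retinoic acid receptor. Of the 11 in Foxp3-positive cells, 4 were lower and 1 higher by 2-fold, against 7.04% and 10.2% of all genes. The lower ones included *Lrrc32*, which holds latent TGF-β on Treg cells (82.8 and 4.87 CPM, -4.09), *Smad7* (-2.09) and *Rara* (-1.95). *Runx3*, a factor known to act on *Itgae*, went from 21.8 CPM, from 10 UMIs, to 66.3 CPM (1.61, 0.71 to 2.68). In Cd8-gated cells, where *Itgae* was lower, *Runx3* was at 169 and 244 CPM (0.53), and a link of the 2 genes was not tested. Past 2-fold in Cd8-gated cells was 1 of the 11, lower from 17 and 2 UMIs, and 0 of the 10 at a mean of 10 or more CPM. In innate-like cells it was 0 of the 10 with a ratio. Over all genes 2.00% were higher and 1.10% lower in Cd8-gated cells, and 6.91% and 2.85% in innate-like cells.

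Of 10 ligand genes, 8 had a ratio in Foxp3-negative cells, with 3 higher and 0 lower. Of the 3 at a mean of 10 or more CPM 1 was higher and 0 lower, against 9.11% and 3.60% of all genes. A list of 3 genes is too short to set against these shares. *Spp1*, osteopontin, was at 20.8 and 161 CPM (2.96) in Foxp3-negative cells, and at 2.99 without cells that carry UMIs of other cell types. A single cell held 45.3% of its 203 WT UMIs, and another 14.7% of its 3744 DKO-severe UMIs. *Fn1*, fibronectin, was at 22.3 and 98.1 CPM (2.14) in innate-like cells, with 64.7% and 34.0% of its UMIs in 1 cell each, and at 1.63 and 1.34 CPM, from 1 and 2 UMIs, when such cells were left out. *Icam1*, which binds LFA-1, was at 13.7 and 20.6 CPM in Foxp3-negative cells and at 27.6 and 45.3 CPM in Cd8-gated cells.

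Likeness was taken as Pearson's r of log2(CPM + 1) over the 8 gate and genotype sums among 6401 other genes with a mean of 20 or more CPM, as a description. The sums share libraries and depth. *Itgb1* was most like *Msl1* (0.943), *Arap2* and *Ralgapa2*, *Itga4* most like *Lsm8* (0.985), *Cdc42se1* and *Prpf38b*, and *Itgav* most like *Top1* (0.993). *Itga1* was most like *Coro1c* (0.982), *Itgb3* like *Kat6a* (0.965) and *Itgb7* like *Ggta1* (0.979). The likeness of *Itgae* was weaker, with *Sla2* first at 0.811.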

How the data were processed

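Single-cell RNA sequencing followed the 10x Genomics protocol for 3' ends (v3.1). The deposited UMI counts, per the labels and matrices, were made by the authors with Cell Ranger 7.1.0 on mm10, with no normalization and 1 matrix per genotype. No aligner setting beyond these is given in the sources used here. Cells with 500 or more genes, at most 10% mitochondrial UMIs and their own hashtag higher were kept. Scrublet (scanpy 1.11.5) called 0 doublets by its own threshold, so the highest 6% of scores per matrix were removed, with ties broken by barcode order. UMIs were summed by gate and scaled to CPM. For all values at equal depth the gates were set on the thinned counts. Ratios carry exact conditional intervals, CPM Poisson intervals and shares Clopper-Pearson intervals. Sums under 3 UMIs counted as 3, and no ratio was given where both sums were at or under 3, or where that floor was not under the level of the other mouse. Genes named beside the 10 were those of fixed lists with a mean of 20 or more CPM and a change of 2-fold or more, at most 4 per list and gate. *Icam1* was chosen after its values were seen. *Runx3* met the rule in Foxp3-positive cells only, and its values in Cd8-gated cells are given outside it. The genes, lists and gates were chosen with earlier results of these data known. The ratio and thinning steps were tested on simulated data. One cell state of the design is not reported here.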

Additional observations from a re-analysis of the deposited data

Results flagged for a closer look

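For 3 genes the interval of the log2 ratio lay above 0 in 1 gate and below 0 in another. *Itgae* had a log2 ratio of 1.23 in the Foxp3-negative Cd4 gate and -1.66 in the Cd8 gate, a difference of 2.89. Within the Foxp3-negative gate its ratio was 0.09 (-0.45 to 0.68) in cells with *Rora* and 1.34 (0.32 to 2.58) in dividing cells. *Itgb2* had 0.71 in Cd8-gated and -0.38 in innate-like cells, a difference of 1.09, and the latter became 0.04 in cells thinned to equal depth. *Itgb7* had 0.40 in innate-like and -0.28 in Cd8-gated cells, a difference of 0.68. The differences were not tested, since each genotype is 1 mouse.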

How the results depend on the processing

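The 10 integrin genes gave 39 log2 ratios over the 4 gates, and 31 kept their sign under every alternative tried, while 8 changed sign, none of them past 2-fold. Of 349 ratios under alternatives, 58 lay outside the counting interval of the value reported. Of the 11 genes past 2-fold over the gates, counting each gate, 5 stayed so under every alternative. The number past 2-fold was 5 in Foxp3-negative Cd4-gated cells, 3 with a pseudocount of 5 CPM, 7 in thinned counts, with equal weight per cell or with cells that carry markers of other cell types left out, and 8 at 1.5-fold. In Foxp3-positive cells it was 2, against 1 with no doublet removal, with immunoglobulin, haemoglobin, mitochondrial and ribosomal protein genes left out or with a pseudocount of 5 CPM, 3 with cells that carry markers of other cell types left out, and 4 at 1.5-fold. In Cd8-gated cells it was 2, against 4 in thinned counts or with equal weight per cell and 6 at 1.5-fold. In innate-like cells it was 2, against 1 in thinned counts, with equal weight per cell or without overlap of the gates, 3 with gate markers at 2 or more UMIs, with the highest 12% of doublet scores removed or with no doublet removal, and 4 at 1.5-fold. The cause of these moves was not tested. No paired analysis was possible because each genotype has 1 mouse. Summed UMIs were lowest in the 64 Foxp3-positive and 105 innate-like WT cells, at 459046 and 761935, which widens the intervals there.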
